A study of Homo sapiens with 6 samples.

Results

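Small nucleolar RNA host genes, the long noncoding genes whose introns carry small nucleolar RNAs (snoRNAs), were examined in thyroid cancer cells after silencing of GDF15. The genes were chosen by name from the expression table: every gene whose symbol starts with SNHG, together with GAS5, ZFAS1, EPB41L4A-AS1 and DANCR. This gave 32 genes of the 34738 listed. Of these, 22 had a mean expression of at least 1 FPKM (a fragment count corrected for transcript length and library depth) over the 6 libraries and entered the test, among 11867 tested genes in all. Of the 22 host genes, 10 were higher and 3 were lower in siGDF15 cells than in NC cells at an adjusted p under 0.05, and 9 did not pass the test. SNHG18, EPB41L4A-AS1, SNHG8, SNHG26, SNHG16, SNHG32, ZFAS1, GAS5, SNHG29 and SNHG5 were upregulated, and SNHG1, DANCR and SNHG6 were downregulated.

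A host gene is transcribed and spliced like other genes, and the snoRNA is then cut out of the excised intron. C/D box snoRNAs guide 2′-O-methylation of ribosomal RNA, and H/ACA box snoRNAs guide its pseudouridylation. The spliced exons of many hosts encode no long protein, and they are kept at low levels by nonsense-mediated decay (NMD), the pathway that degrades RNAs whose translation stops early. Several hosts, like the ribosomal protein genes, start with a 5′ terminal oligopyrimidine (TOP) tract, which places the translation of the RNA, and through it the decay of the exons, under growth control. GAS5 takes its name from its accumulation in growth-arrested cells.

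The libraries came from cells of a human thyroid cancer line labelled KHM-5M, either with GDF15 knocked down by siRNA (siGDF15, 3 libraries) or as control (NC, 3 libraries). GDF15 encodes a secreted cytokine induced by stress, and the study asked which transcripts change when it is silenced. The study's sequencing methods name the NC cells negative control cells and its list of siRNAs holds a negative control siRNA, whereas the series' design text speaks of blank controls. For cells left without siRNA, effects of the transfection and of the silencing cannot be told apart. The list holds a single siRNA against GDF15, so with either control other effects of that siRNA cannot be told apart from those of the silencing. The labels name 1 line while a legend of the study names another, TPC-1, and a single line is a narrow model. The methods call the libraries biological replicates, but nothing says that they came from separate cultures, so p-values measure the spread between these libraries.

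The targeted gene was checked first. GDF15 was at 22.4, 19.3 and 23.1 FPKM in NC replicates 1 to 3 and at 10.8, 10.5 and 10.7 FPKM in siGDF15 replicates 1 to 3, so the groups did not overlap. It fell by 0.92 on the log2 scale (standard error 0.079, edgeR's quasi-likelihood test with Benjamini-Hochberg adjustment, adjusted p = 2.4e-05), and a two-sided exact permutation test over the libraries gave p = 0.1, the smallest value that 3 against 3 allows. Total counts were between 67569576 and 68025163 in 5 libraries and 51738814 in siGDF15 replicate 2. With a read pair counted as about 4 counts, a count of 0 in a library allows a true level of up to 12 counts, for counting error only. Of the thyroid follicular markers reported here, PAX8 and FOXE1 passed the expression filter, whereas TG, SLC5A5, NKX2-1 and DIO1 were under it, with group means of at most 0.186 FPKM. In NC, PAX8 was at 59.1 ± 5.33 FPKM, and in siGDF15 it reached 79.5 ± 1.69 FPKM (SD, n = 3 each). The summed markers of other cell types were 91.4 to 133 FPKM in NC and 111 to 122 FPKM in siGDF15 for 4 epithelial genes, and 397 to 442 against 364 to 378 FPKM for 5 mesenchymal genes. They were 0.107 to 0.256 against 0.607 to 0.739 FPKM for 3 leukocyte genes, mostly from CD14 at 0.107 to 0.249 against 0.592 to 0.739 FPKM, with PTPRC at 0 in every siGDF15 library and CD3E at 0 in every NC library, and 0.0858 to 0.123 against 0.108 to 0.179 FPKM for 2 endothelial genes. The share of counts from mitochondrially encoded genes was 6.39 to 6.78% in NC libraries and 8.53 to 9.17% in siGDF15 libraries. The part of any of these in the results was not tested, and in bulk RNA fewer cells of a kind and less RNA per cell cannot be told apart.

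The snoRNAs show what the host genes carry. In GENCODE release 29 (GRCh38), 31 of the 32 host genes held at least 1 annotated snoRNA entry on their own strand. Of these, 16 held 1 entry and 14 held 2 to 7, whereas SNHG14 held 84. Some entries cover the same place, such as SNORD60 and RF00345 in SNHG19, so the entries are not all separate snoRNAs. GAS5, known as a host of C/D box snoRNAs, held none in this annotation. Shown are snoRNAs of hosts that were higher (SNHG18, SNHG32, ZFAS1, SNHG29, EPB41L4A-AS1 and SNHG8) or lower (SNHG1 and DANCR). In the C/D box snoRNAs (SNORD) the capitals mark the C box TGATGA, searched in the first 25 bases, and the D box CTGA, searched in the last 20 bases. In the H/ACA box snoRNAs (SNORA) they mark ACA lying 3 bases from the 3′ end. Only the given strand was searched, and the motifs were matched as letters, not as sites in use.
SNORD123 in SNHG18, chr5:9548836-9548905 + strand: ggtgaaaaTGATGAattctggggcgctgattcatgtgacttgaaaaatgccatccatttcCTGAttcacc
SNORD48 in SNHG32, chr6:31835263-31835326 + strand: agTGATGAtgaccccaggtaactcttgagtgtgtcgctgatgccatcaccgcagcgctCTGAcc
SNORD12C in ZFAS1, chr20:49278940-49279028 + strand: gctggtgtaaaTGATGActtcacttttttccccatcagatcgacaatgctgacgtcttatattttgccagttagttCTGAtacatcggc
SNORD65 in SNHG29, chr17:16441226-16441298 + strand: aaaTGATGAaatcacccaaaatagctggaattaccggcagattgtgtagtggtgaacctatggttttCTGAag
SNORD27 in SNHG1, chr11:62855012-62855083 - strand: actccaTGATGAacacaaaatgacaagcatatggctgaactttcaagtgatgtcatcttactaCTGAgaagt
SNORA13 in EPB41L4A-AS1, chr5:112161485-112161617 + strand: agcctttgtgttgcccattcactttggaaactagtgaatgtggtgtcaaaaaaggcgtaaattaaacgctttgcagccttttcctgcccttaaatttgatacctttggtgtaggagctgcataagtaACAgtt
SNORA24 in SNHG8, chr4:118279190-118279320 + strand: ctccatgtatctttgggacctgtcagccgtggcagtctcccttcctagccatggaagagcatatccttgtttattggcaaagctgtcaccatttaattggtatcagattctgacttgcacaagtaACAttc
SNORA26 in DANCR, chr4:52713249-52713370 + strand: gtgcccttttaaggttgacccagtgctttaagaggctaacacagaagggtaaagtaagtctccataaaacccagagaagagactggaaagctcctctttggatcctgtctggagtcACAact
Both the C box and the D box were found by this search in 188 of 288 annotated SNORD entries (65.3%), and the ACA box in 112 of 149 SNORA entries (75.2%). Of the tested hosts, 11 held only C/D box snoRNAs, of which 7 were higher and 2 lower, with a median log2 fold change of 0.43. Another 8 held only H/ACA box snoRNAs, of which 2 were higher and 1 lower, with a median of 0.061. GAS5, which was higher, was in neither count. Also outside both were SNHG12, which held snoRNAs of both classes, and SNHG20, whose entry is SCARNA16, and neither of these passed the test. These are counts of few genes, and the difference between the classes was not tested.

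The starts of the host genes show which begin with a TOP-like tract. The windows run from 20 bases before to 30 bases from the start annotated by RefSeq (GRCh38.p14), and the capitals mark the unbroken run of C and T at the start itself. A run was called TOP-like when it began with C and was at least 5 bases long, on the gene's own strand. Of the 32 host genes, 28 were matched by symbol. Shown are the tracts of 4 hosts that were higher, the tract of SNHG12, and starts without one from hosts that were higher or lower.
SNHG18 start, chr5:9546180-9546229 + strand: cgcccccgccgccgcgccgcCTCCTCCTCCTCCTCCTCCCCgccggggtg
SNHG32 start, chr6:31834896-31834945 + strand: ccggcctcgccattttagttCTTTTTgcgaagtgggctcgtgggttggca
ZFAS1 start, chr20:49278622-49278671 + strand: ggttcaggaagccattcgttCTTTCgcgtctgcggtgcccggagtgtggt
SNHG5 start, chr6:85678704-85678753 - strand: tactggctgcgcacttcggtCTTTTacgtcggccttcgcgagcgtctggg
SNHG12 start, chr1:28581844-28581893 - strand: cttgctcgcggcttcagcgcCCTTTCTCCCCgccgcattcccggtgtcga
EPB41L4A-AS1 start, chr5:112160506-112160555 + strand: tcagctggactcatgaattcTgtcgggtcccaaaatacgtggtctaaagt
SNHG8 start, chr4:118278742-118278791 + strand: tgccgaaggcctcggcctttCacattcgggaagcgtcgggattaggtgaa
SNHG16 start, chr17:76557744-76557793 + strand: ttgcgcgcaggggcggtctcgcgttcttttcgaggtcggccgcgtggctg
SNHG1 start, chr11:62855856-62855905 - strand: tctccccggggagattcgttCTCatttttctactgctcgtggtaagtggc
DANCR start, chr4:52712374-52712423 + strand: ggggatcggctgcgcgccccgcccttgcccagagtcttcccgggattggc
A TOP-like start was found in 7 of the 28 matched host genes (25.0%), compared with 1104 of 27305 annotated promoters of the same length (4.04%). Among ribosomal protein genes that host snoRNAs, the search found one in 10 of 16 windows (62.5%). A window without a TOP-like run therefore does not show that the gene lacks a TOP tract. GAS5 had none at its RefSeq start, chr1:173869045, whereas its start in the expression table was 173868882. It was found in 4 of the 10 hosts that were higher (SNHG18, SNHG32, ZFAS1 and SNHG5) and in 3 of the 11 other matched tested hosts (SNHG12, SNHG4 and SNHG19). The starts are those of the annotation and were not measured in these cells, so another start in use would give another window.

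To set the host genes beside the whole transcriptome, the shares called were compared. Of the 22 hosts, 13 (59.1%) passed the test in either direction, close to the share of all tested genes (61.4%). The direction was less even: 10 hosts (45.5%) were higher, compared with 30.0% of all tested genes, and 3 (13.6%) were lower, compared with 31.4%. With libraries scaled by their totals alone, 22.8% of all genes were higher and 39.4% lower, and with libraries set to the same median, 34.3% and 27.2%. The hosts that were higher numbered 10 under each scaling, and those that were lower numbered 4 and 2. At a log2 fold change of at least 1, SNHG18 and EPB41L4A-AS1 were higher, 2 of 22 hosts against 360 of the 11867 tested genes (3.03%). No host was lower by that much, against 567 of the 11867 tested genes. The FPKM values of the groups did not overlap in 16 of the 22 hosts, 10 higher and 6 lower. They did not overlap in 8119 of the 11867 tested genes (68.4%), 3038 higher and 5081 lower. The median log2 fold change of the hosts was 0.17, and that of all tested genes was 0.003. Without NC replicate 2 the hosts' median was -0.003, and without NC replicate 3 it was 0.33. With the filter at 0.1 FPKM it was 0.08, against 0.01 for all genes, and with no filter 0.08 against 0.07. Without a filter the hosts' median thus lay close to that of all genes. Both settings bring genes of lower expression into both medians, so the sets of genes differ from those above. The hosts called stayed at 10 higher and 3 lower in both settings.

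**Figure D1:**
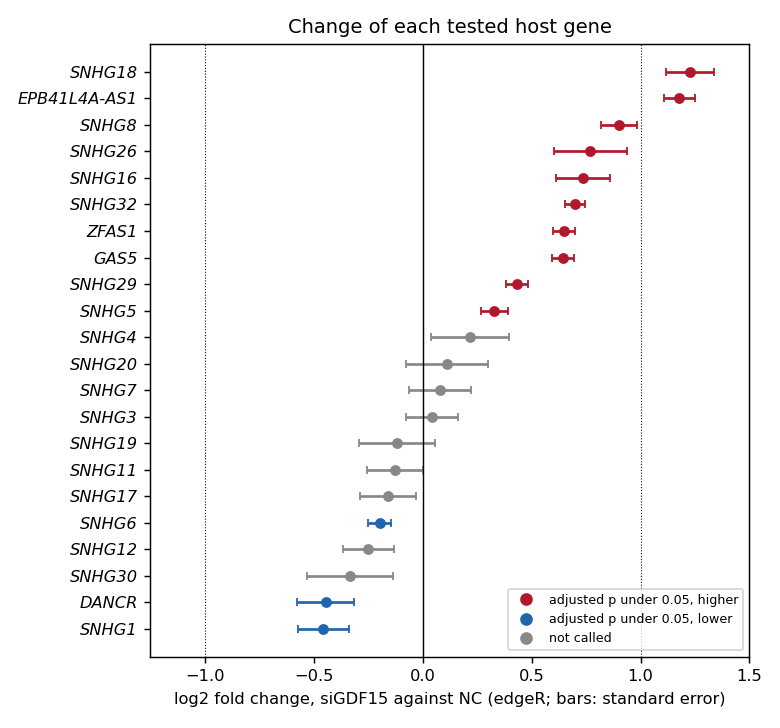
Log2 fold change of each of the 22 tested host genes, siGDF15 against NC, from edgeR (points), with its standard error (bars), red where higher and blue where lower at an adjusted p under 0.05, gray where not called, and dotted lines at a log2 fold change of 1 in either direction. The values run from 1.23 for SNHG18 to -0.46 for SNHG1, and 10 hosts lie above 0 with a call.

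Summed over all 32 host genes, expression was 234, 210 and 247 FPKM in NC replicates 1 to 3 and 272, 275 and 280 FPKM in siGDF15 replicates 1 to 3. All siGDF15 libraries were thus above all NC libraries, and NC replicate 2 was the lowest. The sum weighs abundant hosts most and does not show a rise of every host. Group means went from 39.8 to 57.9 FPKM for GAS5, 26.9 to 40.6 for SNHG32, 15.0 to 23.3 for SNHG16 and 29.4 to 36.9 for SNHG29. Those of SNHG6 and SNHG1, also abundant, fell from 25.8 to 20.9 and from 21.6 to 14.6 FPKM. The share of all counts that came from the 32 host genes together was 0.138, 0.124 and 0.143% for the NC libraries, against 0.161, 0.163 and 0.166% for siGDF15. By mean FPKM, which is scaled by transcript length, GAS5 was the most abundant host at 48.8 FPKM, followed by SNHG32 at 33.8, SNHG29 at 33.2, SNHG6 at 23.4, SNHG16 at 19.2 and SNHG1 at 18.1 FPKM. SNHG20 was the lowest tested host at 1.01 FPKM. The order of SNHG32 and SNHG29 differed between the groups: SNHG29 was above SNHG32 in all NC libraries and below it in all siGDF15 libraries.

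**Figure D2:**
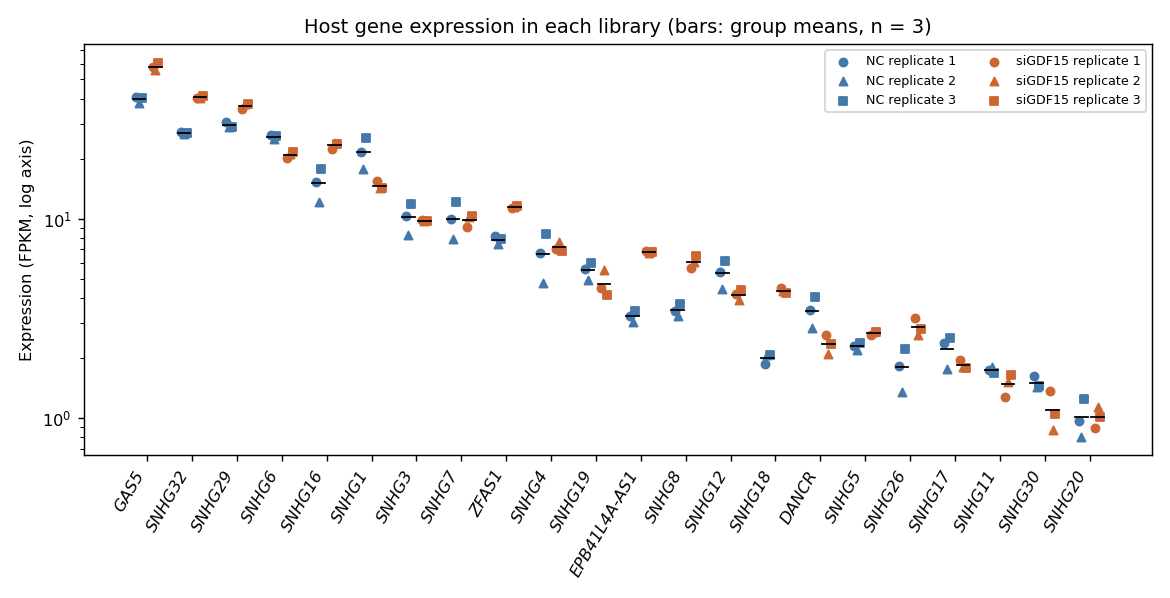
FPKM (log axis) of the 22 tested host genes in each library, ordered by mean, with NC in blue and siGDF15 in orange, replicates 1, 2 and 3 as circles, triangles and squares, and group means (n = 3) as black bars. GAS5 is highest with 39.8 FPKM in NC and 57.9 FPKM in siGDF15, and in many hosts the triangle of NC replicate 2 is the lowest blue point.

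The largest rises were in SNHG18, EPB41L4A-AS1 and SNHG8, which each hold a single annotated snoRNA entry. This is no trait of the largest rises alone. SNHG26 and SNHG5, which were higher by less, DANCR and SNHG6, which were lower, and SNHG20 and SNHG30, which were not called, also hold a single entry. SNHG18 (ENSG00000250786, noncoding, GRCh38 chr5:9546170-9550725, + strand), host of SNORD123 in an intron, was at 1.85, 2.06 and 2.05 FPKM in NC and at 4.48, 4.33 and 4.21 FPKM in siGDF15. Every siGDF15 library was above every NC library. Its log2 fold change was 1.23 ± 0.112 (SE, adjusted p = 3.29e-05, edgeR). EPB41L4A-AS1 (ENSG00000224032, chr5:112160526-112164818, + strand), host of SNORA13 and antisense to the gene of the cytoskeletal protein EPB41L4A, was at 3.25, 3.01 and 3.45 FPKM in NC. In siGDF15 it was at 6.89, 6.73 and 6.83 FPKM, a narrow range well above NC. Its log2 fold change was 1.18 ± 0.0706 (SE, adjusted p = 3.46e-06, edgeR). The opposite gene EPB41L4A did not pass the filter, with means of 0.0225 FPKM in NC and 0.0224 FPKM in siGDF15. SNHG8 (ENSG00000269893, chr4:118278703-118285316, + strand), host of SNORA24, was at 3.45, 3.25 and 3.75 FPKM in NC and at 5.62, 6.02 and 6.50 FPKM in siGDF15. The groups again did not overlap, and the log2 fold change was 0.90 ± 0.0815 (SE, adjusted p = 3.07e-05, edgeR). It overlaps PRSS12, a protease gene of the opposite strand whose means were 0.749 FPKM in NC and 1.16 FPKM in siGDF15.

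The abundant hosts GAS5, SNHG32 and SNHG29 rose with little spread between replicates. GAS5 (ENSG00000234741, chr1:173858559-173868882, - strand), a noncoding RNA linked to growth arrest, was at 40.8, 38.0 and 40.5 FPKM in NC and at 57.4, 55.5 and 60.7 FPKM in siGDF15. No value overlapped, and the log2 fold change was 0.65 ± 0.0511 (SE, adjusted p = 1.48e-05, edgeR). SNHG32 (ENSG00000204387, chr6:31834608-31839764, + strand), host of SNORD48 and SNORD52, was at 27.2, 26.5 and 27.0 FPKM in NC and at 40.2, 40.4 and 41.2 FPKM in siGDF15. Its coefficient of variation was 1.29% in NC, the smallest of the tested hosts, and 1.35% in siGDF15. The log2 fold change was 0.70 ± 0.0458 (SE, adjusted p = 5.52e-06, edgeR). SNHG29 (ENSG00000175061, chr17:16438767-16473103, + strand), host of SNORD49A, SNORD49B and SNORD65, was at 30.6, 28.7 and 28.9 FPKM in NC and at 35.7, 37.6 and 37.5 FPKM in siGDF15. This rise was smaller but without overlap, with a log2 fold change of 0.43 ± 0.0489 (SE, adjusted p = 0.000107, edgeR).

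ZFAS1 and SNHG5 start with short TOP-like tracts and rose by different amounts. ZFAS1 (ENSG00000177410, chr20:49278178-49298102, + strand), host of SNORD12, SNORD12B and SNORD12C, was at 8.15, 7.45 and 7.93 FPKM in NC and at 11.2, 11.5 and 11.6 FPKM in siGDF15. All siGDF15 values were above all NC values, and the log2 fold change was 0.65 ± 0.0517 (SE, adjusted p = 1.53e-05, edgeR). For SNHG5 (ENSG00000203875, chr6:85650491-85678754, - strand), host of SNORD50B, the values were 2.30, 2.19 and 2.39 FPKM in NC and 2.61, 2.71 and 2.71 FPKM in siGDF15. This was the smallest of the called rises, with a log2 fold change of 0.33 ± 0.0617 (SE, adjusted p = 0.00186, edgeR).

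SNHG16 and SNHG26 rose above a wide spread in NC. SNHG16 (ENSG00000163597, chr17:76557727-76565357, + strand), host of SNORD1A, SNORD1B and SNORD1C, was at 15.4, 12.1 and 17.7 FPKM in NC and at 22.3, 23.9 and 23.7 FPKM in siGDF15. Its coefficient of variation was 18.7% in NC and 3.73% in siGDF15, yet the groups did not overlap. The log2 fold change was 0.73 ± 0.123 (SE, adjusted p = 0.00101, edgeR) and ran from 0.60 to 0.87 when each library was left out in turn. SNHG26 (ENSG00000228649, chr7:22854126-22872952, + strand), host of SNORD93, was at 1.81, 1.35 and 2.22 FPKM in NC and at 3.18, 2.60 and 2.78 FPKM in siGDF15. NC replicate 2 was the lowest library and siGDF15 replicate 1 the highest. The log2 fold change was 0.77 ± 0.167 (SE, adjusted p = 0.00398, edgeR).

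The hosts that fell were SNHG1, DANCR and SNHG6. SNHG1 (ENSG00000255717, chr11:62851978-62855932, - strand), host of SNORD22 and SNORD25 to SNORD28 among others, was at 21.5, 17.8 and 25.4 FPKM in NC and at 15.4, 14.2 and 14.2 FPKM in siGDF15. Its log2 fold change was -0.46 ± 0.118 (SE, adjusted p = 0.00973, edgeR), and the groups did not overlap with NC replicate 2 the lowest control. DANCR (ENSG00000226950, chr4:52712325-52723623, + strand), host of SNORA26 and named for its part in holding back differentiation, was at 3.47, 2.83 and 4.02 FPKM in NC and at 2.61, 2.08 and 2.36 FPKM in siGDF15. The log2 fold change was -0.45 ± 0.132 (SE, adjusted p = 0.0177, edgeR). The adjusted p of DANCR was 0.05 without NC replicate 1, 0.0745 without siGDF15 replicate 2 and 0.0523 without siGDF15 replicate 3, so the call was lost without any of these libraries. SNHG6, host of SNORD87, was at 26.3, 25.1 and 26.1 FPKM in NC and at 20.2, 21.1 and 21.5 FPKM in siGDF15. Its log2 fold change was -0.20 ± 0.0521 (SE, adjusted p = 0.0105, edgeR), and with libraries set to the same median it was -0.14 with an adjusted p of 0.0529.

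Among the 9 hosts that did not pass the test, log2 fold changes ran from 0.22 to -0.33, with standard errors of 0.117 to 0.196. The values were 0.22 for SNHG4, 0.11 for SNHG20, 0.08 for SNHG7 and 0.04 for SNHG3. SNHG7, SNHG20 and SNHG3 took the other sign under some alternatives. Below 0 lay SNHG19 at -0.12, SNHG11 at -0.13, SNHG17 at -0.16, SNHG12 at -0.25 and SNHG30 at -0.33. SNHG12, host of SNORD99 and several H/ACA box snoRNAs, was at 5.38, 4.43 and 6.12 FPKM in NC and at 4.16, 3.89 and 4.39 FPKM in siGDF15. All its siGDF15 values were under all its NC values, with an adjusted p of 0.0943 (edgeR). Without NC replicate 2, SNHG12 and SNHG17 passed the test as lower, so that 5 hosts were lower in place of 3. Without NC replicate 3, SNHG4 passed it as higher (log2 fold change 0.43, adjusted p = 0.0184, edgeR). A missed threshold does not show that the groups were alike.

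The host genes shared a pattern among the control libraries that the grouping did not use. NC replicate 2 was the lowest control in 20 of the 22 hosts (90.9%), compared with 35.3% of all tested genes. NC replicate 2 was the lowest and NC replicate 3 the highest in 14 hosts (63.6%), compared with 25.7% of all tested genes. In 10 hosts (45.5%), compared with 15.4% of all tested genes, the coefficient of variation in NC was above 15%. These were SNHG1, SNHG3, SNHG4, SNHG7, SNHG12, SNHG16, SNHG17, SNHG20, SNHG26 and DANCR, at 16.0 to 27.7%, and in each of the 10 NC replicate 2 was the lowest and NC replicate 3 the highest. The other 12 hosts, with GAS5, SNHG32, SNHG29, ZFAS1, SNHG6 and SNHG18 among them, were at 1.29 to 9.78%. In siGDF15 the coefficient was above 15% in 2 hosts, SNHG19 and SNHG30. SNHG3, for example, was at 10.3, 8.30 and 11.9 FPKM in NC and at 9.78, 9.73 and 9.74 FPKM in siGDF15. Outside the hosts, NC replicate 2 was also the lowest control in 8 of 8 core proteins of the snoRNA particle and in 23 of 24 ribosomal protein genes that host snoRNAs. NC replicate 3 was the highest control in 8 of the 8 core proteins, but in only 14 of the 24 ribosomal protein genes. What set these libraries apart was not tested.

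**Figure D3:**
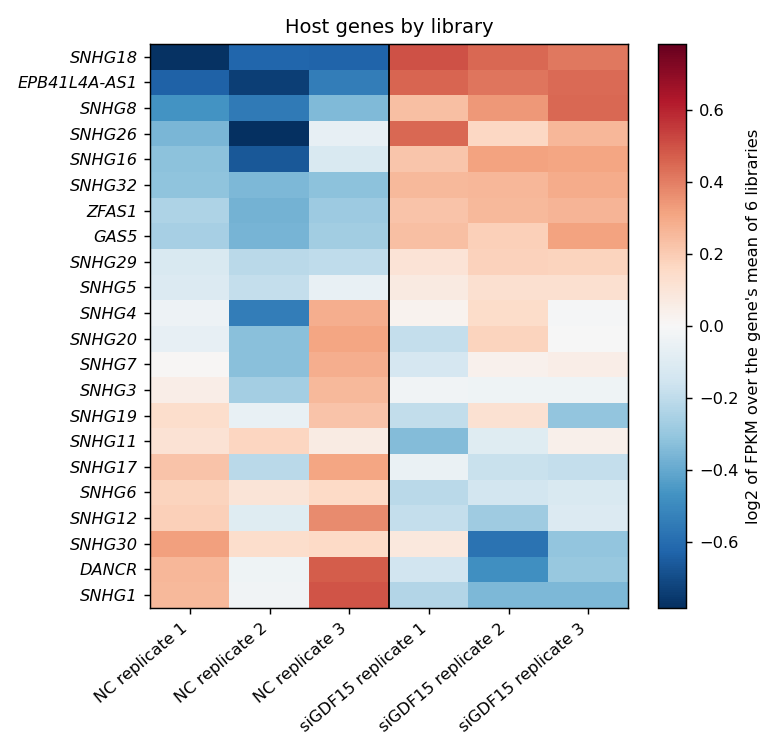
Expression of the 22 tested host genes in the 6 libraries, as the log2 of FPKM over the gene's own mean of 6 libraries (red higher, blue lower), with genes ordered by log2 fold change and a line between NC and siGDF15. NC replicate 2 is the lowest control in 20 of the 22 genes.

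Of the host genes, 10 were not tested because their mean was under 1 FPKM: SNHG9, SNHG10, SNHG14, SNHG15, SNHG21, SNHG22, SNHG25, SNHG27, SNHG28 and SNHG31. Their means ran from 0.0105 FPKM for SNHG27 to 0.782 FPKM for SNHG14. The FPKM values of the groups overlapped in all 10. SNHG14, a very long host gene of the imprinted Prader-Willi region, had 6195 to 7858 counts in NC and 5403 to 7818 in siGDF15, while FPKM is scaled by its length. With the filter set at 0.1 FPKM, 7 of the 10 were tested by edgeR and none was called, with SNHG14 at a log2 fold change of 0.14 (adjusted p = 0.20) and SNHG28 at 1.40 ± 0.735 (SE, adjusted p = 0.165). SNHG28 was at 0.0444, 0.160 and 0.0144 FPKM in NC and at 0.0964, 0.142 and 0.319 FPKM in siGDF15, so its values overlapped and rested on 7 to 137 counts.

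The mature snoRNAs themselves were hardly measured, since the libraries were made from poly(A) RNA and mature snoRNAs are short and lack a poly(A) tail. The expression table lists 83 snoRNA entries inside 28 host genes, some of them covering the same place. Of these entries, 77 had a mean under 1 FPKM and 6 were tested, with none called by edgeR. The most abundant was SNORD104 in SNHG25, with a mean of 3.71 FPKM and a log2 fold change of 0.003 (adjusted p = 0.995). It was followed by SNORA73B in SNHG3 (log2 fold change 0.17, adjusted p = 0.725), SNORD93 in SNHG26 (0.62, adjusted p = 0.204) and SNORD48 in SNHG32 (-0.21, adjusted p = 0.618). SNORD48 was at 2.52, 1.83 and 2.38 FPKM in NC and at 1.77, 2.15 and 1.63 FPKM in siGDF15. These values rested on only 13, 9 and 12 counts in NC and 9, 8 and 8 counts in siGDF15. They are too few to set against its host SNHG32, which was higher in every siGDF15 library. SNORD93 rested on 8 to 19 counts, SNORD104 on 13 to 30 and SNORA73B on 24 to 68. Reads of a mature snoRNA and of the unspliced host cannot be told apart here, so these values do not give the amount of snoRNA.

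Genes that share a start region with a host were compared with it. Within 1000 bases, 12 genes on the opposite strand started head to head with 11 of the hosts, and 7 of these genes were tested. ZNFX1, a helicase gene opposite ZFAS1 with starts 248 bases apart, was at 18.5, 18.2 and 17.4 FPKM in NC and at 24.9, 24.3 and 23.5 FPKM in siGDF15. It rose with a log2 fold change of 0.53 (adjusted p = 2.11e-05, edgeR), beside 0.65 for ZFAS1. ZNFX1 and ZFAS1 overlap at their annotated starts, and the strand setting of the processing is not given, so the split of reads there is uncertain. In the other pairs the values were as follows. SLC3A2, which encodes an amino acid transporter subunit and starts 72 bases from SNHG1, had a log2 fold change of -0.06 (adjusted p = 0.703) beside -0.46 for SNHG1, and its NC values of 52.7, 43.7 and 62.2 FPKM were again lowest in replicate 2. SEMA5A, a semaphorin gene 95 bases from the start of SNHG18, had 0.35 (adjusted p = 0.317) beside 1.23. TRAF7, opposite SNHG19, was higher with 0.35 (adjusted p = 0.000242) beside -0.12. Opposite hosts that were not tested, BARD1 (SNHG31), a partner of BRCA1, fell by 1.52 on the log2 scale (adjusted p = 2.38e-06, edgeR), whereas RPS2 (SNHG9) was higher with 0.35 (adjusted p = 0.000658) and ACAA2 (SNHG22) with 0.43 (adjusted p = 0.00351).

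RCC1, the nucleotide exchange factor of the GTPase Ran, shares its strand with SNHG3, and their starts lie 37 bases apart in the table. It was at 32.3, 27.0 and 35.4 FPKM in NC and at 14.8, 13.0 and 13.4 FPKM in siGDF15 and fell by 1.10 on the log2 scale (adjusted p = 3.27e-05, edgeR), beside 0.04 for SNHG3. Because exons of these overlapping genes can share reads, the split between SNHG3 and RCC1 is uncertain, as is that between SNHG4 and MATR3, a nuclear matrix gene of the same strand. MATR3 was at 8.17, 27.6 and 18.6 FPKM in NC and at 10.8, 2.45 and 7.50 FPKM in siGDF15, with overlapping groups.

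The other genes of the snoRNA pathway were taken as whole lists. Of 24 ribosomal protein genes that host snoRNAs, 24 were higher and none was lower, compared with 30.0% and 31.4% of all tested genes, with a median log2 fold change of 0.48. RPL17 was at 186.7 ± 5.04 FPKM in NC and 298.3 ± 6.51 FPKM in siGDF15 (log2 fold change 0.78, adjusted p = 2.58e-06, edgeR), RPL3 had 0.64 and RPL13A 0.62. With libraries scaled by their totals alone, 21 of the 24 were higher and none lower. Ribosomal protein genes have many pseudogenes, and the part of reads shared with them is uncertain. Of 27 other protein-coding hosts, 7 were higher (25.9%) and 8 lower (29.6%), close to the shares of all tested genes, with a median of -0.03. EEF2, an elongation factor of translation, was at 545.7 ± 45.1 FPKM in NC and 1006 ± 32.4 FPKM in siGDF15 (log2 fold change 0.99, adjusted p = 5.95e-06, edgeR). SLC25A3, the mitochondrial phosphate carrier, had 0.68 and the translationally controlled TPT1 0.48. NAP1L4, a histone chaperone, and CWF19L1 were lower, at -0.47 and -0.67. Without NC replicate 2 the lower count of this list was 13.

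Core proteins of the snoRNA particle and its assembly factors were described apart. Of 8 core proteins, 2 were lower (25.0%) and 1 higher (12.5%), neither share above that of all tested genes (31.4% and 30.0%). FBL, the 2′-O-methyltransferase of C/D box particles, fell from 64.2 ± 5.28 to 45.3 ± 1.19 FPKM (log2 fold change -0.40, adjusted p = 0.000854, edgeR). SNU13 fell with -0.31 and NOP10, of H/ACA box particles, rose with 0.34, whereas NOP56, NOP58, DKC1, NHP2 and GAR1 did not pass the test. The median was -0.16, and without NC replicate 2 the lower count was 6 in place of 2. Of 13 assembly factors, 8 were lower (61.5%) and 3 higher (23.1%), with a median of -0.22. PHAX, an export adaptor of small RNAs, was at -0.49, PIH1D1 at -0.37 and RPAP3 at -0.22, and ZNHIT6, TAF9 and NUFIP1 were higher, at 0.33, 0.20 and 0.22. The lower count of this list was 4 without NC replicate 1, without siGDF15 replicate 1 or with libraries set to the same median, and the higher count was 1 with scaling by totals.

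Because NMD limits the exons of many hosts, its factors were listed too. Of 19 NMD factors, 10 were lower (52.6%) and 2 higher (10.5%), compared with 31.4% and 30.0% of all tested genes, with a median log2 fold change of -0.22. The central helicase UPF1 was at 18.2 ± 0.585 FPKM in NC and 13.2 ± 0.416 FPKM in siGDF15 (log2 fold change -0.36, adjusted p = 0.000222, edgeR). RBM8A and MAGOHB, proteins of the exon junction complex, were lower with -0.30 and -0.74. NBAS and PNRC2 were higher, at 0.25 and 0.14, and neither was higher with scaling by totals. Of 7 tested genes listed as having mRNAs sensitive to NMD, 5 were lower (71.4%) and 2 higher (28.6%), the latter near the share of all tested genes. Their median was -0.29. The values are totals per gene and do not separate forms of an mRNA that NMD degrades from other forms. GADD45B fell by 0.88 on the log2 scale (adjusted p = 4.09e-05, edgeR), SRSF3 by 0.40 and the stress transcription factor ATF4 by 0.35, whereas GADD45A was higher with 0.68 (adjusted p = 0.00144) and TBL2 with 0.20. The higher count of this list was 1 with scaling by totals and without either NC replicate 1 or NC replicate 2, or without siGDF15 replicate 1 or siGDF15 replicate 3.

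**Figure D4:**
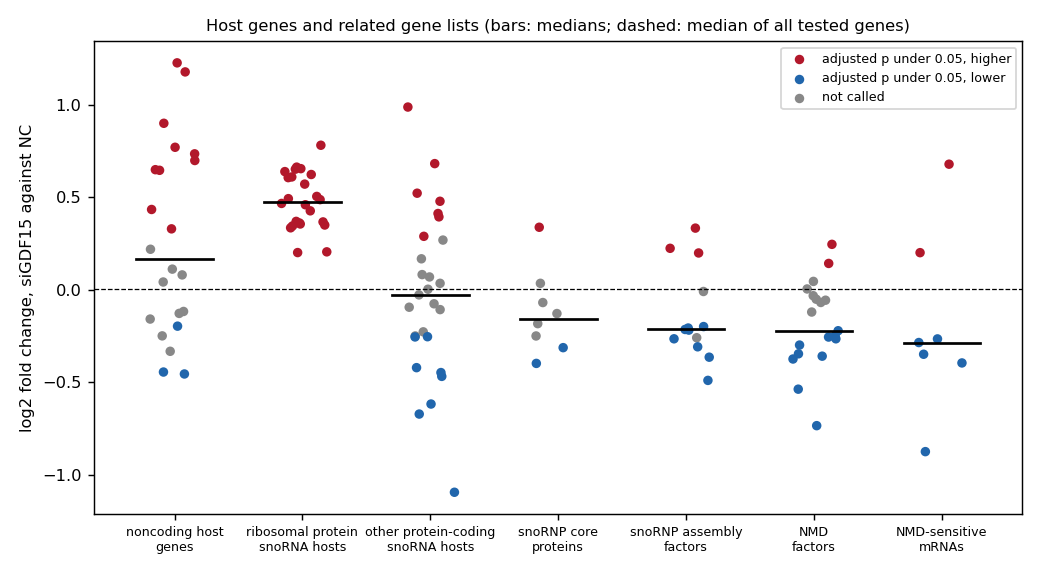
Log2 fold change, siGDF15 against NC, of each tested gene (points, red higher, blue lower, gray not called at an adjusted p of 0.05) in the noncoding host genes and 6 related lists, with the list's median (bar) and the median of all tested genes (dashed line). Ribosomal protein hosts lie above 0 in 24 of 24 genes, and the medians of the snoRNA particle, assembly and decay lists lie below 0.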

How the data were processed

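Poly(A) RNA of 3 NC and 3 siGDF15 libraries was sequenced as read pairs of 150 bases, and the groups were taken from the sample titles. Per the labels' processing notes, the authors used fastp, HISAT2, StringTie and edgeR with GRCh38; versions, annotation release, options and the strand setting are not given in the sources used here, although the library chemistry marks strand. FPKM values, which the authors scaled to the length of the transcript and to the mapped fragments, were deposited. The deposited expected counts are whole numbers derived from coverage, in which 4 counts stood for about 1 read pair, and rounding left them as they were. Unused columns of other samples numbered 0.

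Expected counts were tested for siGDF15 against NC with edgeR 4.0.16 (R 4.3.3), using TMM normalization, the quasi-likelihood test, two-sided, and Benjamini-Hochberg adjustment across 11867 genes whose mean FPKM reached 1. A gene was called at an adjusted p under 0.05. Each standard error came from the fold change and the F statistic, and fold changes are on the normalized count scale, not the FPKM scale. Alternatives used limma 3.58.1 on log2 of FPKM plus 1 or 0.1, DESeq2 1.42.0, other scalings and filters, counts divided by 4, a replicate block and each library left out in turn. Tables and figures were made with Python 3.11.15, numpy 2.4.6, pandas 2.3.3 and matplotlib 3.10.9. Sequences were read from GENCODE release 29 transcripts and RefSeq promoters.

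Members and lists were chosen with earlier results of these data known. Full values were given for the 10 hosts with the smallest adjusted p and those with a log2 fold change of at least 1, log2 fold changes for the other tested hosts, up to 3 called genes per list and direction, every tested head-to-head neighbour and the 4 snoRNAs with the highest mean. Values per library of SNHG1, DANCR, SNHG6, SNHG12, SNHG3, SNHG28 and MATR3 were added after their values were seen.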

Additional observations from a re-analysis of the deposited data

How the results depend on the processing

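The 10 hosts that were higher and SNHG1, which was lower, kept their call in all 15 alternatives. Hosts called lower numbered 5 under limma on log2(FPKM + 1), and from 2 to 5 with single libraries left out. Hosts higher with a log2 fold change of at least 1 numbered 0 under limma on log2(FPKM + 1), where the pseudocount shrinks changes of low genes. The median log2 fold change of the hosts was 0.0632 with library totals and no TMM, when the median of all genes was -0.0992, 0.0784 with a filter of 0.1 FPKM (all genes 0.0134), 0.0847 without a filter (all genes 0.0735), 0.0677 and 0.0844 under limma with a pseudocount of 1 and 0.1 (all genes -0.0813 and -0.0997), and from -0.00295 (without NC replicate 2) to 0.332 (without NC replicate 3) with single libraries left out. Log2 fold changes near 0 turned sign. SNHG7 was at -0.0218 with library totals, -0.00656 and -0.00559 under limma with a pseudocount of 1 and 0.1, and from -0.0669 to 0.243 with single libraries left out. SNHG3 was at -0.0599, -0.0439 and -0.0465 under the same 3, -0.0133 without a filter, and from -0.0898 to 0.174 with single libraries left out, and SNHG20 from -0.0297 to 0.299. The lowest of each was without NC replicate 2 and the highest without NC replicate 3. The cause was not tested. SNHG12 passed the test as lower in 4 alternatives and SNHG30 in 1, limma on log2(FPKM + 1). Calls of all genes split into 3565 higher and 3721 lower, 2701 and 4679 with library totals, and 4074 and 3228 with libraries set to the same median. Of NMD factors, none was called higher without a filter or under limma.

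Same-numbered NC and siGDF15 libraries did not deviate together (correlations 0.0456, -0.125 and 0.0291 over genes), and differently numbered libraries gave -0.197 to 0.133. With 3 libraries in a group this cannot show whether the numbers pair the samples, and the sample titles do not say. With the replicate number as a block, 10 hosts were higher and 3 lower, the median of the hosts was 0.19, and GDF15 was at -0.91. Over all genes 3391 were higher and 3515 lower. Depth limits 9 of the 10 hosts under 1 FPKM, which rested on at most 306 counts in any library, whereas SNHG14 had at least 5403.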
